A study of Mus musculus with 8 samples.

Results

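Smooth muscle genes were examined in the ovaries of pioglitazone-treated and vehicle-treated lethal yellow (LY) mice. All probes whose annotated symbol was Acta2, Actg2, Myh11, Des, Tagln, Cnn1, Myl9, Mylk or Smtn were taken, which gave 10 probes for 9 genes out of 36227 probes and 18069 named genes on the array. Both groups were female C57BL/6J mice heterozygous for the Ay allele of the agouti locus (Ay/a), which is active in most tissues and leads to obesity and insulin resistance with age. From 120 to 180 days of age, 4 mice received pioglitazone in DMSO by gavage each day for 60 days, and 4 mice received DMSO alone. The daily dose is 0.1 mg in the GEO design text, while the paper states a lower one. One ovary per mouse was trimmed of fat and connective tissue and hybridized to 1 CodeLink array per mouse, with no pooling. Neither the labels nor the methods give the stage of the estrous cycle, and mice of another genotype were not analysed here.

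Smooth muscle contraction begins when calcium, bound to calmodulin, switches on myosin light chain kinase, which phosphorylates the regulatory light chain so that smooth muscle myosin can pull on actin filaments. Most contractile genes of this cell type are switched on together by serum response factor (SRF) and its coactivator myocardin, which act at a short DNA element called the CArG box. In the ovary such cells lie in the walls of arteries and arterioles, in the outer theca layer of growing follicles and in the stroma, and ovarian pericytes share part of the same set. The oviduct and the ligaments beside the ovary also hold smooth muscle.

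Levels are given in relative intensity units, the background-corrected intensity divided by the median of its array, and 0.2 units is the limit of sensitivity used in the study. Levels are compared between mice for 1 probe and not between probes, which bind with different strength. All 10 probes passed the filter for testing. Every gene but Des and Smtn was at 10 units or more in every mouse, and Smtn was in all but vehicle mouse 4. Across the series, 30634 probes were tested, correlations between arrays ran from 0.937 to 0.989, and none of the probes passed an adjusted p of 0.05 in limma (0 of 30634, smallest adjusted p 0.599). At an unadjusted p under 0.05, limma called 1685 probes, with 603 higher (1.97%) and 1082 lower (3.53%) in pioglitazone-treated mice. The split was 691 higher and 799 lower with quantile normalization and 723 higher and 823 lower with cyclic loess normalization. It also rests on single arrays, with 592 higher and 586 lower without vehicle replicate 1, 698 and 682 without vehicle replicate 3, 348 and 389 without pioglitazone replicate 4, and 609 and 1834 without pioglitazone replicate 1. In whole ovary, fewer cells of a type and less RNA per cell cannot be told apart.

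The CArG box is the DNA element named above, so the stretches before the start sites of Acta2 and Myl9 that hold it, or a near match, are shown here. The sequences come from RefSeq on build GRCm38.p6. The site is 10 bases long, with CC at one end, GG at the other and 6 bases of A or T between them, and it reads the same way on both strands. Capitals mark exact sites and sites with 1 of the 6 central bases changed to G or C.
Acta2, first site (chr19:34255438-34255467, minus strand): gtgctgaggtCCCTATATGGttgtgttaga
Acta2, second site (chr19:34255388-34255417, minus strand): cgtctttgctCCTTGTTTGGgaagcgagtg
Myl9 (chr2:156775278-156775399, plus strand): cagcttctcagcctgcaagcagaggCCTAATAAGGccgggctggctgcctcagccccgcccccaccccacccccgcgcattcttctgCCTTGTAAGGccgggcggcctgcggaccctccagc
The Acta2 sites begin 84 and 34 bases before the start that the sequence table uses, and those of Myl9 161 and 99 bases before it. The annotated span of Acta2 (chr19:34240336-34255585) reaches farther in the 5′ direction than that start, so that both of its sites lie inside the span. The first Myl9 site is exact and the other 3 have 1 changed base. Of the 9 genes, 6 had an entry in the table (Des, Myl9, Cnn1, Smtn, Mylk and Acta2), and in the 250 bases before the start 1 held an exact site and 2 held a site with at most 1 change. Among all 27025 genes in the table, 1.62% held an exact site and 9.78% a site with at most 1 change. Of 29 contractile and cytoskeletal partners that had an entry, 6 held an exact site (Cnn2, Fhl1, Fhl2, Ldb3, Myl6 and Vcl). Of these 29, Cnn2, Actn1 and Flna are not among the tested partners described below. A match is a description of the letters and says nothing on binding, and sites farther from the start or inside an intron were not searched.

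Of the 10 probes, those of Cnn1 and Myh11 had the smallest unadjusted p. Myh11, which encodes the smooth muscle myosin heavy chain, was at 85.1, 70.9, 86.4 and 71.5 relative intensity units in pioglitazone mice 1 to 4, against 69.1, 46.3, 66.0 and 62.0 in vehicle mice 1 to 4. Every pioglitazone value lay above every vehicle value. The means were 78.5 ± 8.43 in pioglitazone-treated and 60.8 ± 10.1 in vehicle-treated mice (n = 4 each, ± SD), and their ratio was 1.29. The log2 fold change in limma was 0.38 (95% interval 0.0007 to 0.75, unadjusted p = 0.0496, adjusted p = 0.837), and the 2-sided exact permutation p was 0.0286, the smallest that 4 against 4 mice allow. Of all probes tested, 1.97% were called higher. Groups did not overlap in 4.59% of them, with pioglitazone higher in 1.46% and lower in 3.13%. Cnn1, which encodes calponin, an actin-binding protein that restrains the myosin ATPase, was at 28.6, 37.8, 27.8 and 18.7 units in the pioglitazone mice, against 18.3, 25.7, 13.5 and 15.1 in the vehicle mice. Pioglitazone mouse 4 lay below vehicle mouse 2, so that the groups overlapped. The means of Cnn1 were 28.2 ± 7.8 and 18.1 ± 5.42 units in pioglitazone-treated and vehicle-treated mice, a ratio of 1.56, with a log2 fold change of 0.64 (95% interval 0.05 to 1.23, unadjusted p = 0.0359, adjusted p = 0.837 in limma, exact permutation p = 0.0571). Myh11 lies at chr16:14194527-14292188 and Cnn1 at chr9:22099221-22109221 on build GRCm38.p6. Both genes, and also Actg2, Des and Smtn, were higher in all 4 same-numbered pairs of mice, as were 7.53% of all probes tested.

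These calls rest on few mice. The Myh11 call was lost when pioglitazone replicate 1, 2, 3 or 4 was omitted (leaving 0.34, 0.42, 0.33 and 0.42 on the log2 scale) and without vehicle replicate 2 or 4 (0.25 and 0.39). The Cnn1 call was lost without pioglitazone replicate 1, 2 or 3 (0.62, 0.48 and 0.63) and without vehicle replicate 1, 3 or 4 (0.66, 0.51 and 0.57). Without a filter on dim probes the Myh11 call was also lost, as was the Cnn1 call with the methods' t-test, both at the same log2 fold change. With quantile normalization both calls held, with Myh11 at 0.58 and Cnn1 at 0.75.

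**Figure D1:**
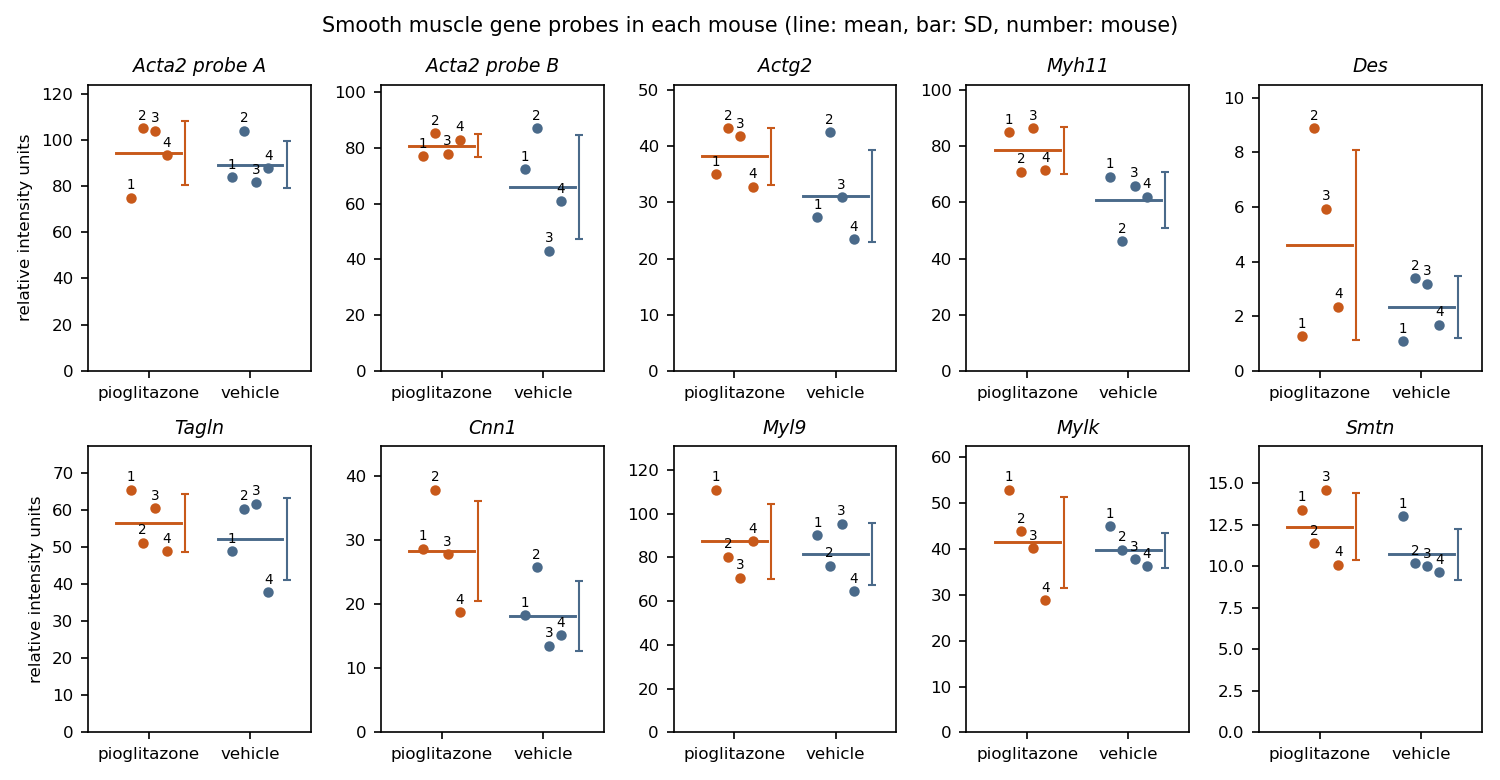
Relative intensity units (linear axes from 0) of the 10 smooth muscle gene probes in each pioglitazone-treated and vehicle-treated mouse, with a numbered point for each mouse, a line for the mean of a group and a bar for its SD. The 4 pioglitazone values of Myh11 (70.9 to 86.4) all lie above the 4 vehicle values (46.3 to 69.1), while the groups of the other probes overlap.

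The actins gave smaller differences. Acta2 encodes smooth muscle alpha-actin, the main thin filament actin of vessel walls, and has 2 probes of the same accession, called A for the brighter and B for the dimmer. Probe A was at 75.0, 105.0, 104.0 and 93.4 units in pioglitazone mice 1 to 4, against 83.7, 104.0, 81.7 and 87.7 in vehicle mice, and the groups overlapped widely. Its log2 fold change was 0.07 (95% interval -0.28 to 0.43, adjusted p = 0.948 in limma). Probe B was at 77.1, 85.4, 78.0 and 83.0 units in pioglitazone mice, against 72.5, 87.1, 43.1 and 61.0 in vehicle mice. The lowest value of probe B was that of vehicle mouse 3, which in probe A lay close to vehicle mouse 1. Its log2 fold change of 0.34 (95% interval -0.13 to 0.81, adjusted p = 0.851 in limma) was called at an unadjusted p under 0.05 without vehicle replicate 2 (0.49), and it was 0.15 without vehicle replicate 3. Actg2, which encodes the enteric or gamma smooth muscle actin, was at 35.0, 43.2, 41.8 and 32.8 units in pioglitazone mice, against 27.4, 42.5, 30.9 and 23.5 in vehicle mice. Vehicle mouse 2 lay among the pioglitazone mice, and the other vehicle mice lay below all of them. The log2 fold change of Actg2 was 0.32 (95% interval -0.13 to 0.78, adjusted p = 0.852 in limma), and it was called without vehicle replicate 2 (0.48) and with array weights (0.46). The actins are closely alike in coding sequence, and whether any of these probes also binds another actin was not tested.

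Des, which encodes the intermediate filament desmin that ties contractile units together, had the widest spread. It was at 1.26, 8.88, 5.94 and 2.35 units in pioglitazone mice 1 to 4, against 1.10, 3.40, 3.19 and 1.69 in vehicle mice 1 to 4. In both groups mice 2 and 3 were high and mice 1 and 4 were low. Such an order was seen in 5.94% of all tested probes with a value in every array, and among the other smooth muscle probes in Actg2. The means of Des were 4.61 ± 3.48 and 2.34 ± 1.13 units in pioglitazone-treated and vehicle-treated mice, a ratio of 1.96, and the log2 fold change was 0.74 (95% interval -0.64 to 2.12, adjusted p = 0.876 in limma). The SD of Des within groups on the log2 scale was 1.06, above that of 98.5% of the probes tested, against 0.19 to 0.41 for the other smooth muscle probes and a median of 0.29 over all probes. In a fit with a block for the replicate number, which takes out what same-numbered mice share, the same log2 fold change of 0.74 had an unadjusted p of 0.0108, where 8.6% of all probes were called and 3.4% were higher. The numbers come from the sample titles, and no shared litter or day is given for same-numbered mice. The p-values with the block, here and below, hold only if these mice are truly paired. Under that block Myh11 and Cnn1 had unadjusted p of 0.0304 and 0.00561, no probe of the array passed an adjusted p of 0.05, and Des was higher with pioglitazone in 4 of 4 pairs. Without the block Des was called with array weights (log2 fold change 1.34) and without pioglitazone replicate 1 (1.24), and with another array left out its log2 fold change ran down to 0.30 (without pioglitazone replicate 2).

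The remaining genes differed little. Tagln, which encodes the actin-binding protein transgelin or SM22-alpha, was at 65.5, 51.2, 60.6 and 49.0 units in pioglitazone mice, against 49.0, 60.4, 61.7 and 37.9 in vehicle mice. Myl9, which encodes the regulatory light chain of smooth muscle myosin, was at 111.0, 80.4, 70.8 and 87.4 units in pioglitazone mice, against 90.1, 76.3, 95.5 and 64.5 in vehicle mice. Mylk, which encodes the myosin light chain kinase, was at 52.9, 43.8, 40.2 and 28.8 units in pioglitazone mice, against 45.0, 39.8, 37.8 and 36.2 in vehicle mice. In these 3 genes the groups overlapped. Smtn, which encodes smoothelin, a marker of contractile smooth muscle, was at 13.4, 11.4, 14.6 and 10.1 units in pioglitazone mice, against 13.0, 10.2, 10.0 and 9.62 in vehicle mice. The ratios of means were 1.08 for Tagln, 1.07 for Myl9, 1.04 for Mylk and 1.16 for Smtn. The 95% intervals, written as folds, were 0.811 to 1.48 for Tagln, 0.796 to 1.43 for Myl9, 0.755 to 1.38 for Mylk and 0.886 to 1.5 for Smtn. Unadjusted p in limma ran from 0.255 (Smtn) to 0.872 (Mylk).

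Over the 9 genes, each with its brighter probe, all 9 log2 fold changes were positive, with a median of 0.20, where 44.3% of all probes tested were positive and their median was -0.03. These genes were chosen with earlier results of these data known and share arrays and tissue, so that their signs are not independent observations. Called at an unadjusted p under 0.05 were 2 genes higher and 0 lower, where 5.5% of all probes were called. The sign of all 10 probes was positive with each scaling tried and with the block. With 1 array left out, Mylk was at -0.10 without pioglitazone replicate 1, -0.006 without pioglitazone replicate 2 and -0.01 without vehicle replicate 4. Myl9 was at -0.03 and -0.01 without pioglitazone replicate 1 or vehicle replicate 4, and Tagln at -0.01 without vehicle replicate 4.

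**Figure D2:**
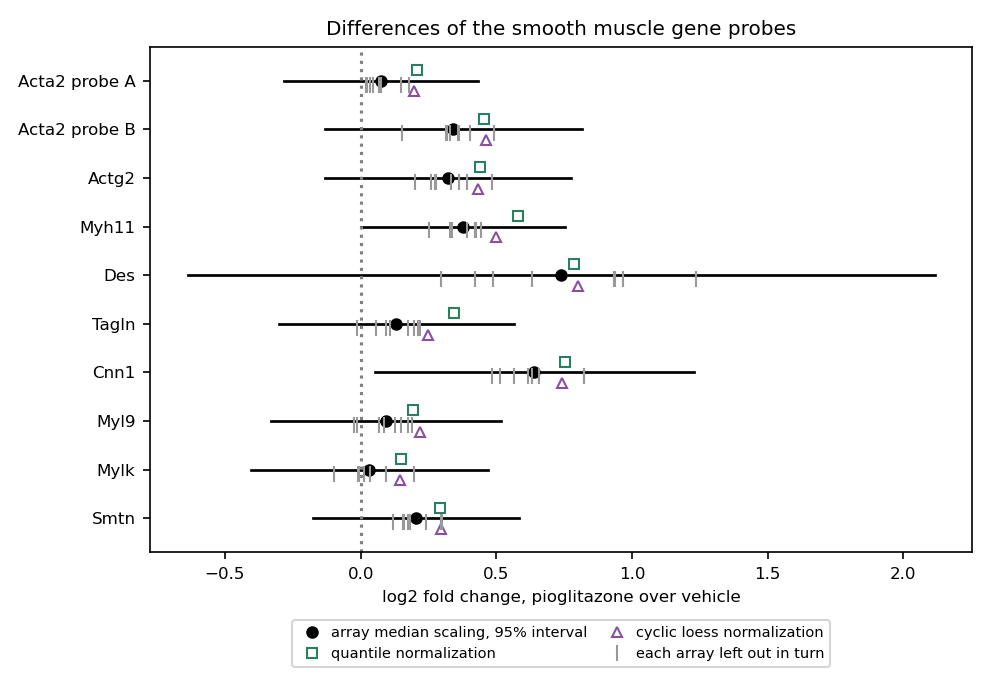
Log2 fold change of pioglitazone over vehicle for each smooth muscle gene probe, with black points and bars for the limma estimate and its 95% interval, open symbols for quantile and cyclic loess normalization, and ticks for the estimates with each array left out in turn. The intervals of Myh11 and Cnn1 lie above 0, that of Des runs from -0.64 to 2.12, and both other normalizations move every probe upward.

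With arrays scaled to their median, more bright probes were lower than higher in pioglitazone-treated mice. In a split chosen after seeing the data, 4916 probes had a mean of at least 10 units over all arrays, and 29.3% of these had a positive log2 fold change, with a median of -0.11. At an unadjusted p under 0.05, 5 of them were higher (0.102%) and 168 were lower (3.42%) in pioglitazone-treated mice. These counts rest on single arrays. When pioglitazone replicate 1, 2, 3 or 4 was omitted, 9, 5, 11 and 3 were higher and 446, 104, 114 and 40 were lower. When vehicle replicate 1, 2, 3 or 4 was omitted, 14, 9, 4 and 12 were higher and 57, 107, 122 and 308 were lower. The median stayed below 0 in each of these fits (-0.19 to -0.05). The 5 higher ones were the probes of Myh11 and Cnn1, of Pdlim3 and Sel1l3, and 1 probe without a name. Pdlim3 and Sel1l3 had vehicle means under 10 units (7.13 and 9.42) and passed the split only through the pioglitazone group (13.5 and 13.1). The count of 5 thus depends in part on the cutoff itself. Groups of 3 bright probes did not overlap with pioglitazone higher (0.061%). With quantile normalization the median of the bright probes was -0.003, and 37 were higher and 48 lower. In classes of probes 1 log2 unit wide in mean level, the 10 smooth muscle probes lay between the 86.2 percentile (Acta2 probe A) and the 99.9 percentile (Des) of the log2 fold changes. These places are a description only, since the genes were chosen with earlier results of these data known. Among probes with a mean log2 level from 6 to 7, for example, the median log2 fold change was -0.13 and the 90th percentile 0.11, against 0.38 for Myh11, 0.34 and 0.07 for the Acta2 probes and 0.09 for Myl9. For Cnn1, the class from 4 to 5 had a 90th percentile of 0.20. What underlies the lower level of bright probes was not tested.

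**Figure D3:**
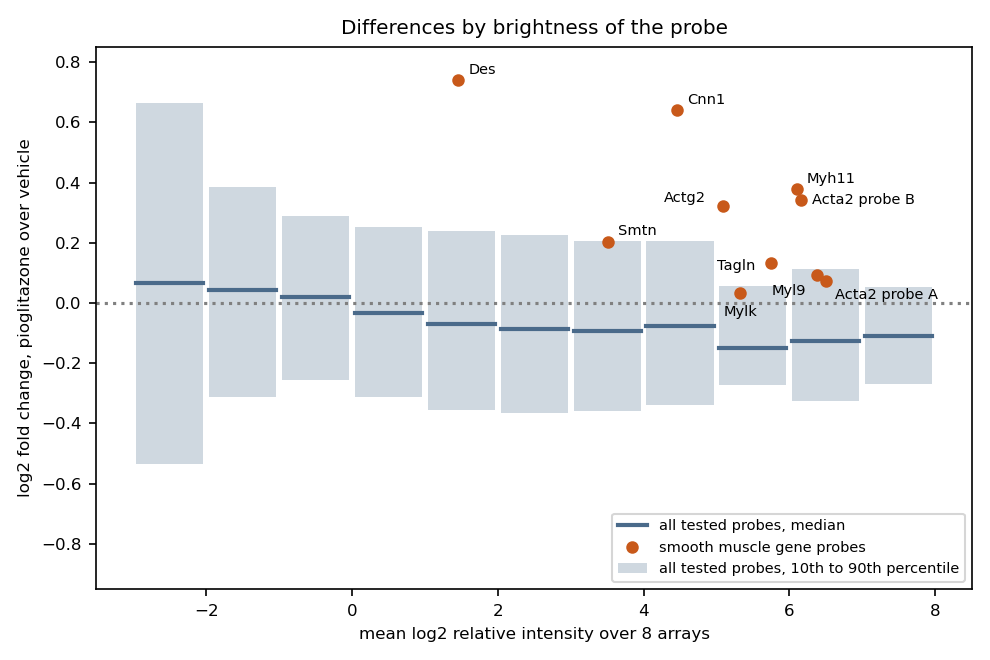
Log2 fold change of pioglitazone over vehicle against mean log2 relative intensity over the 8 arrays. Bars span the 10th to the 90th percentile of all tested probes in classes 1 log2 unit wide, lines in them are medians, and points are the smooth muscle gene probes. The medians are negative in every class of a mean log2 level above 0, while all 10 points lie above 0.

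The genes did not vary as 1 block across the mice. Over the 36 pairs of the 9 genes, Pearson's r of log2 values over the 8 mice had a median of 0.30 and ran from -0.67 (Acta2 probe A and Myl9) to 0.82 (Actg2 and Cnn1), with 28 of 36 positive. After removal of the group means the median was 0.24, with 23 of 36 positive. These values are a description without a test, since all genes of a mouse share 1 array, its scaling and 1 piece of tissue. Some pairs are given here, picked with their values in view. Acta2 probe A, Actg2, Des and Cnn1 had r of 0.49 to 0.82 among the 4, while Myh11 went with Smtn (0.71) and Mylk with Smtn (0.63). These are not separate sets, as Actg2 also went with Tagln (0.66) and Cnn1 with Smtn (0.52) and Mylk (0.50). After removal of the group means, r of Myh11 was -0.64 with Acta2 probe A and -0.59 with Actg2, against -0.285 and 0.04 before that removal. The negative values after that removal come in large part from vehicle mouse 2. It had the highest Acta2, Actg2, Des and Cnn1 of its group and the lowest Myh11. The 2 Acta2 probes had an r of 0.53 with each other. Averaged over the 9 genes, the log2 deviation from each gene's mean was 0.07, 0.34, 0.29 and -0.12 in pioglitazone mice 1 to 4, against -0.18, 0.04, -0.08 and -0.36 in vehicle mice 1 to 4. The median over the genes, which the wide spread of Des moves less, was 0.29, 0.13, 0.30 and -0.13 in the pioglitazone mice, against -0.12, 0.17, -0.08 and -0.37 in the vehicle mice. By the mean pioglitazone mouse 2 was the highest, and by the median pioglitazone mice 3 and 1 were. Vehicle mouse 4 was below the mean of all 8 mice in all 9 genes, and pioglitazone mouse 4 in 6 of the 9.

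**Figure D4:**
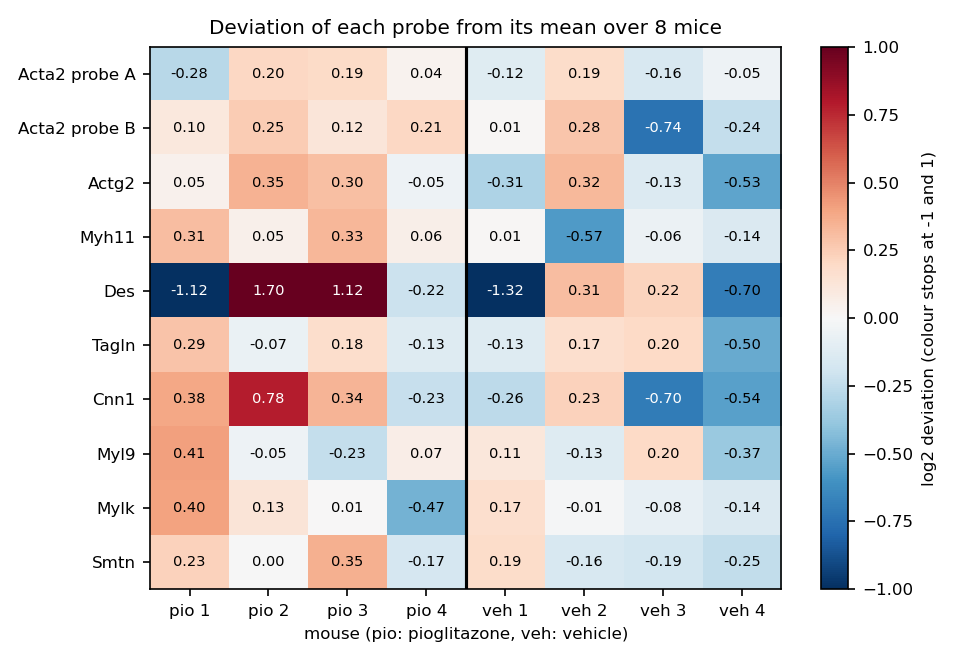
Log2 deviation of each smooth muscle gene probe from its own mean over the 8 mice, with pioglitazone mice to the left and vehicle mice to the right of the black line. Des is high in mice 2 and 3 and low in mice 1 and 4 of both groups, and vehicle mouse 4 is negative in every row.

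Of 12020 other named genes at 0.5 units or more in every array, 10 are given whose log2 values were most like this mean profile over the 8 mice. The profile had an r of 0.76 with Des alone and of 0.89 with a mean profile without Des, which was added after seeing the data. Kcnmb1, which encodes the smooth muscle beta subunit of the large-conductance calcium-activated potassium channel, had an r of 0.86, and of 0.93 after removal of the group means. Postn, which encodes the matrix protein periostin, had an r of 0.91, Col14a1, a collagen that binds to fibrils, 0.89, and Edn1, which encodes the vessel-constricting peptide endothelin, 0.85. Postn was at 1.27, 7.85, 5.67 and 1.27 units in pioglitazone mice 1 to 4, against 1.10, 2.02, 1.54 and 0.975 in vehicle mice, with mice 2 and 3 high in both groups as in Des. Its r was 0.92 with Des and 0.65 with the profile without Des, while that of the other 9 genes was 0.52 to 0.70 with Des and 0.731 to 0.905 with the profile without Des. Ckb, the brain-type creatine kinase, was at 0.89, and the others were Evi2 (0.94), Mcoln2 (0.88), Unc5c (0.86), Hace1 (0.85) and Prune2 (0.85). None of the 10 was called at an unadjusted p under 0.05, and the smallest was 0.0775 for Col14a1. With 8 mice and 12020 genes, high values of r arise among unrelated genes, so that the list describes these mice only.

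Among other contractile and cytoskeletal partners, 28 genes were tested, of which 3 were higher, 0 were lower at an unadjusted p under 0.05, and 11 had a positive log2 fold change (median -0.09). Over all probes tested, 1.97% were higher, 3.53% were lower and 44.3% were positive. The median of the list turned positive with array weights (0.06, 17 of 28 positive), without pioglitazone replicate 4 (0.03) and without vehicle replicate 2 (0.02). Pdlim3, a PDZ and LIM domain protein that binds alpha-actinin, was at 11.7, 22.8, 11.1 and 8.26 units in pioglitazone mice, against 7.39, 8.33, 6.30 and 6.52 in vehicle mice. All pioglitazone values but that of mouse 4 lay above the vehicle values, and mouse 4 lay just below vehicle mouse 2. The log2 fold change of Pdlim3 was 0.82 (standard error 0.28, unadjusted p = 0.0173, adjusted p = 0.837 in limma), and it was called in each of the 8 fits with 1 array left out (0.53 to 1.02) and in all 11 other alternatives. Synpo2, which encodes synaptopodin-2 or myopodin, an actin-bundling protein, had means of 4.19 ± 1.37 and 2.51 ± 0.577 units in pioglitazone-treated and vehicle-treated mice, and a log2 fold change of 0.70. Its call was lost without pioglitazone replicate 1 or 2 (0.56 each), without vehicle replicate 2, 3 or 4 (0.59, 0.66 and 0.70) and with the methods' test, and its 2 dimmer probes were at 0.16 and -0.31. Itga8, the integrin alpha-8 subunit found on smooth muscle and mesenchymal cells, was dim, with means of 0.498 and 0.360 units and a log2 fold change of 0.49. The call of Itga8 was lost without pioglitazone replicate 2, 3 or 4 (0.46, 0.49 and 0.42), without vehicle replicate 1 or 3 (0.43 and 0.37), and with quantile normalization, cyclic loess normalization or array weights. None of the other genes of the list was called, and some of them, picked with their values in view, are given next. Lmod1, a leiomodin that nucleates actin filaments, was at -0.11, caldesmon (Cald1) at -0.08, and the tropomyosin gene Tpm1 at -0.13 on the log2 scale, and Myl6, the essential light chain, at 0.02. The tropomyosin gene Tpm2 was at 3.31, 3.94, 3.73 and 2.54 units in pioglitazone mice, against 4.17, 4.10, 4.93 and 4.07 in vehicle mice. Every pioglitazone value of Tpm2 lay below every vehicle value, as in 3.13% of all probes, with a log2 fold change of -0.37 (adjusted p = 0.837 in limma). Nexn, which encodes the actin-binding protein nexilin, was at 0.45. With the block 4 of these 28 genes were higher (Pdlim3, Synpo2, Itga8 and Nexn) and 3 were lower (Itga5, Tagln2 and Tpm2), where 3.4% of all probes were higher and 5.2% lower.

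Of 27 genes of calcium handling and relaxation, 0 were called in either direction at an unadjusted p under 0.05, 12 had positive log2 fold changes and the median was -0.008. Of all probes tested, 5.5% were called and 44.3% were positive. The smallest unadjusted p in limma were those of Cacnb2, a beta subunit of voltage-gated calcium channels (log2 fold change 0.31, adjusted p = 0.845), and Adra1b, the alpha-1B adrenergic receptor (-0.23, adjusted p = 0.848). Adra1b was at 2.27, 2.30, 2.42 and 2.08 units in pioglitazone mice, against 2.61, 2.48, 3.18 and 2.43 in vehicle mice. The groups did not overlap and pioglitazone was lower, as in 3.13% of all probes tested. Kcnmb1, named above, was at 3.24, 3.95, 4.27 and 2.70 units in pioglitazone mice, against 3.20, 3.41, 3.67 and 2.56 in vehicle mice, with widely overlapping groups. With quantile normalization 18 of the 27 were positive, with a median of 0.05, and with 1 array left out the median was -0.09 (without pioglitazone replicate 3) to 0.06 (without vehicle replicate 2), so that its sign is not settled.

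Of 26 regulators, 0 were higher and 1 was lower, and 8 had positive log2 fold changes (median -0.11), where 3.53% of all probes were lower and 44.3% were positive. Myocd, which encodes myocardin and is largely confined to smooth and cardiac muscle, was at 0.762, 0.639, 0.551 and 0.681 units in pioglitazone mice, against 0.494, 0.547, 0.358 and 0.602 in vehicle mice. The groups overlapped only in that vehicle mouse 4 was above pioglitazone mouse 3. The log2 fold change of Myocd was 0.41 (standard error 0.19, unadjusted p = 0.058, adjusted p = 0.837 in limma), and with the block its unadjusted p was 0.0289. Srf was at 2.28, 2.73, 2.71 and 3.27 units in pioglitazone mice, against 2.60, 2.68, 2.80 and 2.56 in vehicle mice (log2 fold change 0.04). The SRF coactivators Mrtfa and Mrtfb were at -0.34 and 0.04. Tgfb1, which encodes transforming growth factor beta-1, had means of 4.79 ± 1.37 and 6.86 ± 1.81 units in pioglitazone-treated and vehicle-treated mice. Its log2 fold change in limma was -0.53 (unadjusted p = 0.0707, or 0.00861 with the block). The lower gene was Actr6, which encodes a nuclear actin-related protein of a chromatin remodelling complex rather than a regulator of smooth muscle. The study singled it out on these samples, so that its log2 fold change of -0.97 is not independent evidence, and without it the list holds 0 calls. With the block Prrx1, a homeobox gene of mesenchyme, was also lower (-0.35), so that 1 of the 26 was called higher and 3 lower. The block called 3.4% of all probes higher and 5.2% lower.

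**Figure D5:**
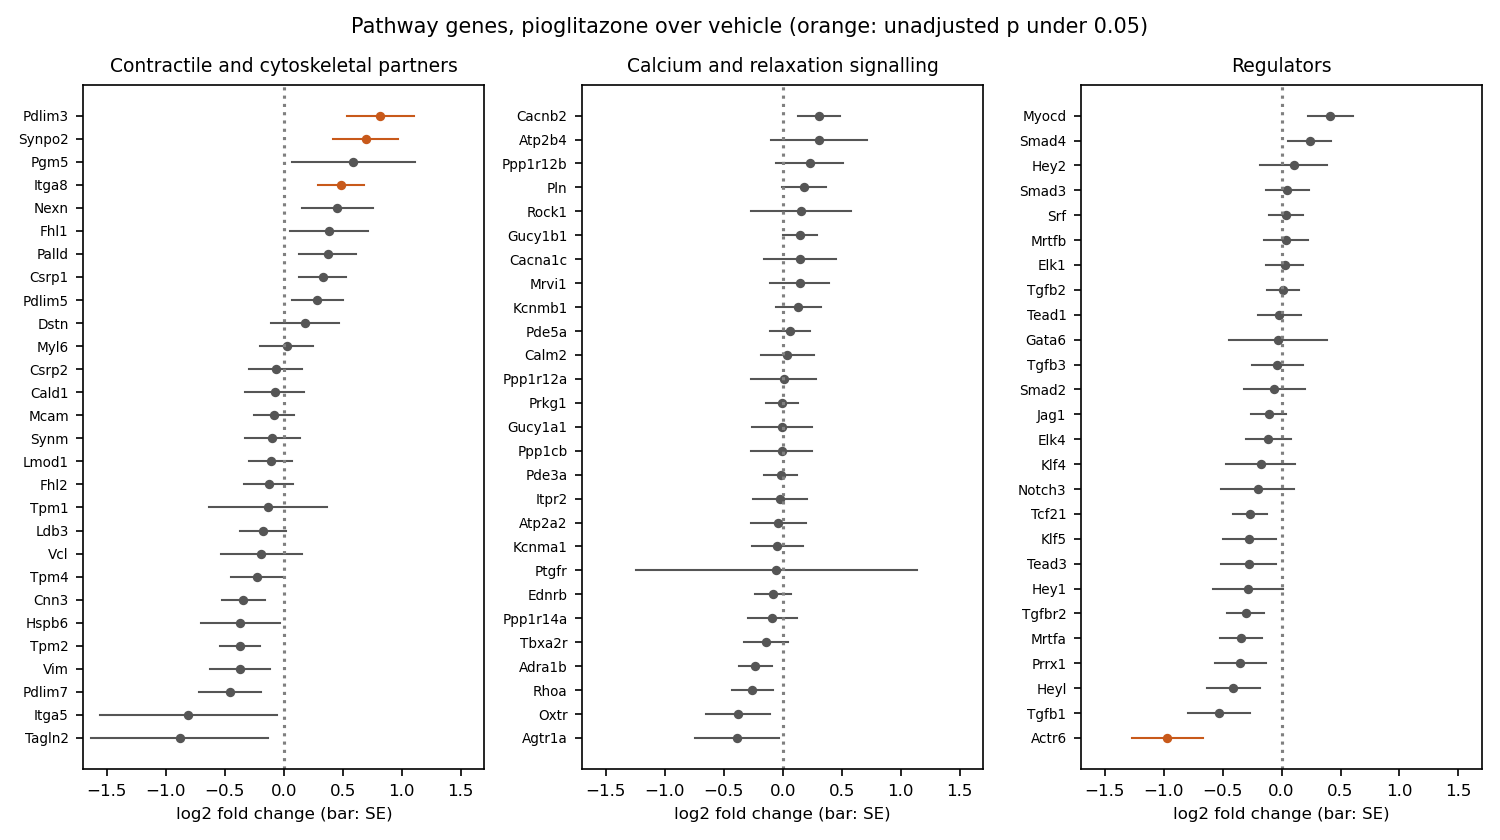
Log2 fold change of pioglitazone over vehicle, with standard error bars, for the 28 contractile and cytoskeletal partners, the 27 genes of calcium handling and relaxation and the 26 regulators, each sorted by size. Orange marks an unadjusted p under 0.05, reached by Pdlim3, Synpo2 and Itga8 (higher) and Actr6 (lower).

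Markers of other cells that hold or border smooth muscle are given beside these results. Of all probes tested, 1.97% were called higher and 3.53% lower at an unadjusted p under 0.05. Of 10 pericyte markers, 0 were higher and 1 was lower (Ndufa4l2, log2 fold change -0.35), and their summed level was 41.2 to 56.2 units in pioglitazone mice and 47.6 to 67.1 in vehicle mice. Of 9 endothelial markers, 0 were higher and 1 was lower (Emcn, endomucin, -0.45), with sums of 73.5 to 85.2 units in pioglitazone mice and 62.3 to 108.0 in vehicle mice. A dimmer probe of Emcn, with means of 0.252 and 0.228 units in pioglitazone-treated and vehicle-treated mice, was at 0.16 on the log2 scale. The endothelial gene Cdh5 was under 0.2 units in every array. Both calls were lost with quantile or cyclic loess normalization (-0.27 and -0.26 for Ndufa4l2, -0.35 and -0.36 for Emcn). That of Ndufa4l2 was also lost without pioglitazone replicate 3 or 4 (-0.34 and -0.28) or vehicle replicate 1, 2 or 3 (-0.31, -0.34 and -0.32) and with array weights, and that of Emcn without pioglitazone replicate 1 (-0.36) or vehicle replicate 1 or 2 (-0.41 and -0.40). Of 11 fibroblast and stroma markers 0 were called, with sums of 306 to 462 units in pioglitazone mice and 356 to 440 in vehicle mice. Of the 6 oviduct markers tested, 1 was higher, the cilia gene Dnah5, at 0.219 to 0.343 units in pioglitazone mice and 0.124 to 0.213 in vehicle mice, close to the limit of 0.2 (log2 fold change 0.61). The vehicle mean of Dnah5 was 0.178, so that it passed the filter only through the pioglitazone group (mean 0.27). With a filter of at least 0.2 in every array, 4 oviduct markers were tested and 0 were higher. Tekt1, which encodes a tektin of ciliary microtubules, was at 1.24, 0.697, 0.478 and 1.00 units in pioglitazone mice, against 0.682, 0.541, 0.198 and 0.693 in vehicle mice. It was higher in all 4 same-numbered pairs, as were 7.53% of all probes tested. The log2 fold change of Tekt1 was 0.76 (adjusted p = 0.845 in limma), and it was called with the block. The sum of the oviduct markers was 27.8 to 37.4 units in pioglitazone mice and 23.8 to 37.3 in vehicle mice, of which the keratin gene Krt7 gave the most (log2 fold change -0.22). Foxj1 and Pax8, defining genes of oviduct epithelium, were too dim to be tested, and Ovgp1, the oviduct glycoprotein gene, was at 2.46 to 2.93 units in pioglitazone mice and 2.01 to 2.84 in vehicle mice. Of 9 striated muscle markers 0 were called, with sums of 7.55 to 12.8 units in pioglitazone mice and 9.28 to 12.1 in vehicle mice. Myh1 was under 0.2 in every array and Myh4, Myh7 and Tnnt3 were too dim to be tested. Adipocyte markers (6 tested, 0 called) had sums of 27.4 to 155.0 units in pioglitazone mice and 42.1 to 85.9 in vehicle mice, with pioglitazone mouse 1 highest. That mouse also had the highest Tagln, Myl9 and Mylk of all 8 mice, but the lowest Acta2 probe A (75.0 units) and a low Des. Without that mouse the log2 fold changes of Myh11 and Cnn1 were 0.34 and 0.62, and both calls were lost. Those of Tagln, Myl9 and Mylk fell to 0.06, -0.03 and -0.10, while those of Acta2 probe A and Des rose to 0.18 and 1.24. The ovarian markers were present, with 1 of 8 granulosa genes higher (Fst) and 0 of 7 theca and luteal and 0 of 9 oocyte genes called. The call of Fst was lost in 6 of the 8 fits with 1 array left out (0.49 without pioglitazone replicate 2 at the lowest). With the block 2 granulosa (Fst and Nr5a2), 2 oviduct, 1 endothelial and 1 fibroblast and stroma (Postn) markers were higher. Lower with the block were 1 pericyte, 1 endothelial (Emcn) and 4 theca and luteal markers. The block called 3.4% of all probes higher and 5.2% lower. The part of other cell types in the smooth muscle values was not tested.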

How the data were processed

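RNA from the ovaries of 8 LY mice was hybridized to CodeLink whole-genome arrays, with 1 dye and 1 array per mouse. The deposited values are linear intensities for each probe. Per the labels and the methods, the authors aligned the images in GenePix Pro, subtracted background with CodeLink software and normalized each slide to its median in GeneSpring 7.0. No depth applies to arrays, and 4 mice per group limit the precision.

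Values of -9999 were read as missing. Values were scaled so that every array had a median of 1, then floored at 0.05 and put on the log2 scale. Probes with at least 3 values per group and a mean of 0.2 or more in 1 group were tested with limma 3.58.1 in R 4.3.3, and p-values were adjusted over all probes tested by the Benjamini-Hochberg method. Single probes were also tested by 2-sided exact permutation over 70 assignments. Scripts were tested on simulated data. Symbols came from the GEO platform table, which gave 1 symbol for 21615 probes, several for 681 and none for 13931. Where a gene had several probes, the brightest stood for it in lists.

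Same-numbered mice deviated together (correlations of 0.515, 0.181, 0.274 and 0.232 between pioglitazone and vehicle mice 1 to 4), which comes from the data and from the numbers in the titles, since no shared litter or day is given. Pioglitazone mouse 3 went more closely with vehicle mouse 2 (0.369).

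Named were all smooth muscle probes, in each list up to 3 genes with the smallest p and any gene called, and the 10 genes most like the mean profile. Other list genes were chosen after their values were seen. The genes and lists themselves were chosen with earlier results of these data known. Alternatives covered the floor, normalization, filter, variance model, array weights, the methods' test, the block and each array left out.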

Additional observations from a re-analysis of the deposited data

Results flagged for a closer look

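Smtn in vehicle mouse 1 was at 13.0 relative intensity units, apart from the other vehicle mice (10.2, 10.0 and 9.62), with a gap to the nearest of them of 0.831 of the range of the group. In pioglitazone mice Smtn was at 13.4, 11.4, 14.6 and 10.1 units. Of 20 groups of 4 mice examined, this was the one so marked, and chance marks about 1 in 20.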

How the results depend on the processing

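The median log2 fold change of the 9 smooth muscle genes stayed positive under all 20 alternatives, and with 1 array left out it was between 0.16 and 0.30. The number of smooth muscle probes called at an unadjusted p under 0.05, 2 in limma, was 1 without a filter on dim probes (Cnn1), 1 with the methods' t-test (Myh11), 4 with array weights and 0 to 3 with 1 array left out. With the replicate block it was 3, with Des added, and the block changed no other call among the smooth muscle probes. Over all probes the block called 2635, and leaving out 1 array gave 737 to 2443 (737 without pioglitazone replicate 4). No alternative changed the count of 0 at an adjusted p of 0.05, beside 1685 at an unadjusted p under 0.05. With 1 array left out, log2 fold changes crossed 0 for Tagln (-0.015 to 0.22), Myl9 (-0.025 to 0.19) and Mylk (-0.10 to 0.20). The causes were not tested. Probes near 0.2 units, such as Dnah5 and Itga8, are close to background.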

Other observations

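Of 8 granulosa markers, all 8 had positive log2 fold changes (median 0.32, or 0.19 to 0.43 with 1 array left out), where 44.3% of all probes were positive. These markers, too, were chosen with earlier results of these data known. Their summed level was 98.9 to 176.0 units in pioglitazone mice and 90.4 to 119.0 in vehicle mice. Follistatin (Fst), an antagonist of activin, averaged 4.72 ± 1.69 units in pioglitazone-treated mice and 2.90 ± 0.71 in vehicle-treated mice (SD, n = 4 each). Of 7 theca and luteal markers, 1 had a positive log2 fold change (median -0.72), with sums of 317 to 361 units in pioglitazone mice and 379 to 574 in vehicle mice. Hsd3b1 and Cyp17a1 gave most of each sum, so that it says little on the other genes. Hsd3b1 was at 113 to 215 units in pioglitazone mice and 197 to 242 in vehicle mice. Cyp17a1, the gene with the positive log2 fold change (0.23), was at 9.07 to 228 and 7.17 to 297 units. None of the 7 theca and luteal markers was called, while with the replicate block 4 were lower, where the block called 5.2% of all probes lower. Their median was -0.20 with array weights and -0.98 to -0.31 with 1 array left out.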
